A study of Rattus norvegicus with 6 samples.

Results

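Histone genes encode the proteins that package DNA into chromatin. The 27 genes described here were those of 14506 measured genes whose array annotation gave a single symbol of the histone families H1, H2A, H2B, H3 or H4, and each gene was represented by its probe set of highest mean signal. They comprised 6 H1, 8 H2A, 6 H2B, 5 H3 and 2 H4 genes. RNA came from 6 adult Sprague-Dawley rats, from the endosalpinx that lines the oviduct, with 1 Affymetrix array per animal. The 3 unmated rats were kept alone and killed at 0130 h of estrus, and the 3 mated rats had been caged with a fertile male at 2200 h of the preceding pro-estrus, had sperm or a vaginal plug 30 min later, and were killed 3 h after mating. Males were present for the mated animals alone, so cohabitation and mating cannot be told apart. The family was examined because 2 H2B genes, Hist1h2bg and Hist1h2bq, had been noted as higher in mated rats. The differences between mated and unmated rats below are therefore descriptions with their errors, and no p-value is given for a histone gene.

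The 4 core histones, H2A, H2B, H3 and H4, form the nucleosome around which DNA is wound, and H1 binds the linker DNA between nucleosomes. Most core histone genes lie in clusters and are called replication-dependent, because their messages are made mainly in S phase and end in a stem-loop in place of a poly(A) tail. Replacement histones such as H2A.Z and H3.3 are made throughout the cell cycle from polyadenylated messages. Replication-dependent histone messages are therefore commonly read as a mark of dividing cells in a tissue. The whole-transcript labelling named in the labels does not depend on a poly(A) tail in the way that oligo-dT priming does.

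H2B genes are known for an octamer element in their promoters, to which the POU factor Oct-1 binds. It is shown here for all 6 measured H2B genes, because they are the class that stood highest in mated rats. Each line gives the 150 bases that precede the annotated gene start, 5′ to 3′ on the gene's strand, from the RefSeq promoter table of the rat assembly GRCr8, with the octamer ATTTGCAT in capitals where it occurs.
H2bc1 (chr17:41599762-41599911, plus strand): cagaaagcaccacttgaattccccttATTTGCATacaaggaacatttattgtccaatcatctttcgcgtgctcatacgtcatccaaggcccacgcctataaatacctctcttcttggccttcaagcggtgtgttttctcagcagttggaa
H2bc12 (chr17:47181941-47182090, minus strand): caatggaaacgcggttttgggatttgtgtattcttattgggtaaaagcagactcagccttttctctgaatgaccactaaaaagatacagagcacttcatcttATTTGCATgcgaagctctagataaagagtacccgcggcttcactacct
H2bc18 (chr2:186527047-186527196, plus strand): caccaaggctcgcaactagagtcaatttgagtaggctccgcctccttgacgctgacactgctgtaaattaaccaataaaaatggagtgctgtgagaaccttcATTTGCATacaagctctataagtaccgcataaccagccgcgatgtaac
Hist1h2bg (chr17:41999119-41999268, plus strand): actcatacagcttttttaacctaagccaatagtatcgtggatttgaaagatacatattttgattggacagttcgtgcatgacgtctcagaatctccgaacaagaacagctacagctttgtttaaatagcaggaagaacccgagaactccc
Hist1h2bq (chr17:41869342-41869491, minus strand): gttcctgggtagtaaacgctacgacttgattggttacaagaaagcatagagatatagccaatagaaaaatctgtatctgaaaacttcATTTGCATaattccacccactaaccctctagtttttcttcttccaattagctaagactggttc
Hist3h2ba (chr10:44225271-44225420, plus strand): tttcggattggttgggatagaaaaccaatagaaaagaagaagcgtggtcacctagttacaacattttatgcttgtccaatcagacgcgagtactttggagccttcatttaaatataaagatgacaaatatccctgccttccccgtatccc

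The octamer began 48 bases before the start in H2bc12 and H2bc18, 63 bases before it in Hist1h2bq and 124 bases before it in H2bc1. In the 250 bases before the start, on either strand, ATTTGCAT occurred in 4 of 6 H2B windows and in 1.56% of the 33469 windows of the table. Of the other classes, 4 of 8 H2A, 1 of 5 H3 and 0 of 6 H1 windows held it. The H2A gene H2ac1 and the H2B gene H2bc1 start back to back, and the octamer in both of their windows is the same site. The 26 histone genes matched by Entrez identifier also included 24 with CCAAT on either strand, against 34.0% of all windows, and 12 with TATAAA on either strand, against 12.9%. None of the 3 motifs contains another. Of the 2 genes noted beforehand, Hist1h2bq had the octamer in this window and Hist1h2bg did not.

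All 6 H2B genes had a higher mean in mated than in unmated rats, by 0.11 to 0.64 on the log2 scale. Their median difference was 0.34, and that of all 14506 genes was 0.01. The H2B median includes Hist1h2bg and Hist1h2bq, which were noted beforehand as higher. H2bc1, Hist3h2ba, H2bc12 and H2bc18, which were not, differed by 0.11, 0.24, 0.25 and 0.64. Median differences were 0.12 for the 8 H2A genes, 0.07 for the 6 H1 genes, 0.02 for the 5 H3 genes and 0.02 for the 2 H4 genes. No gene of the 14506 passed an adjusted p of 0.05 by limma, and the smallest adjusted p was 0.984. At an unadjusted p under 0.05 the counts were 7 histone genes higher and 0 lower in mated rats, where 3.02% of all genes were higher and 1.55% lower. The mated values lay above all 3 unmated values for 8 of the 27 histone genes and below them for 1, where 5.24% and 3.23% of all genes did so. Since the family was picked on this comparison, nothing is read from these counts or from the rank of H2B among the class medians.

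Over all genes the split at an unadjusted p under 0.05 moved with the scaling, from 438 higher and 225 lower as deposited to 393 and 299 after a second quantile normalization and to 336 and 294 with array medians set equal. For the histone genes that split was also 7 higher and 0 lower under both of these scalings. As deposited, the 7 included Hist1h2bg and Hist1h2bq, on which the family was picked. Rescaling the same arrays cannot test a difference on which the family was picked, so nothing is read from the unchanged count. The count of 7 was 3 without unmated replicate 2, where 262 of all genes were higher at that threshold, and 4 without mated replicate 2, where 344 were.

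**Figure D1:**
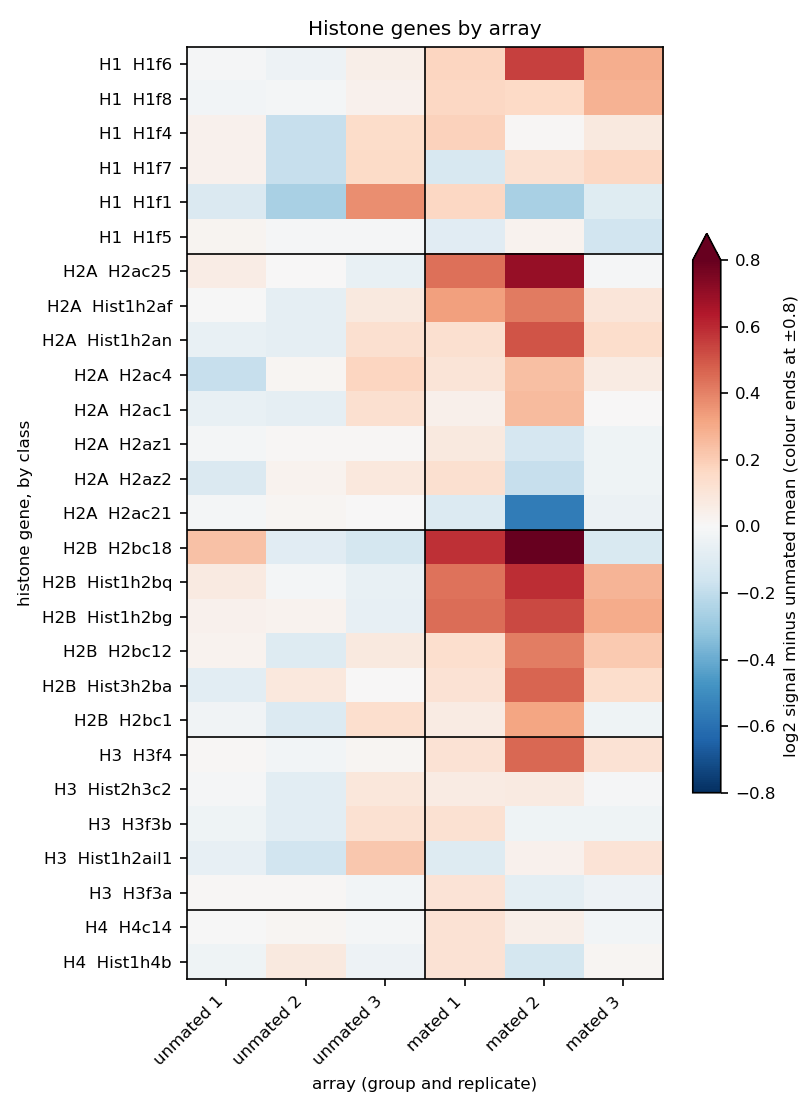
Log2 signal of each of the 27 histone genes on each of the 6 arrays, as the difference from that gene's unmated mean (colour, ending at ±0.8), ordered by class and by the difference between groups. Mated replicate 2 was the highest array for 14 of the 27 genes, including all 6 H2B genes.

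Hist1h2bq (Entrez 306945), a core H2B gene of the Hist1 cluster, had log2 signals of 12.38, 12.29 and 12.25 in unmated and 12.74, 12.90 and 12.58 in mated rats. The groups did not overlap, and the difference of 0.43 (95% confidence interval 0.22 to 0.65) corresponds to a 1.35-fold higher signal in mated rats. Hist1h2bg (Entrez 64647), from the same cluster, had 8.73, 8.72 and 8.63 in unmated and 9.14, 9.22 and 8.99 in mated rats. Its lowest mated value lay 0.26 above its highest unmated value, and its difference was 0.42 (0.24 to 0.61). In both genes mated replicate 2 was the highest and mated replicate 3 the lowest of the mated arrays.

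H2bc12, a further Hist1 H2B gene, had 8.11, 7.98 and 8.16 in unmated and 8.22, 8.49 and 8.29 in mated rats, a difference of 0.25 (95% confidence interval 0.04 to 0.46). Its groups were separated by only 0.06. Hist3h2ba, an H2B gene of the small Hist3 cluster, had 7.47, 7.64 and 7.56 in unmated and 7.67, 8.02 and 7.70 in mated rats. Its difference was 0.24 (-0.005 to 0.48), with groups 0.03 apart. In H2bc12 and Hist3h2ba, mated replicates 1 and 3 lay close to the unmated values and mated replicate 2 stood above them.

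H2bc18, an H2B gene of the Hist2 cluster, had the largest difference of the family, 0.64, and also the widest interval (95% confidence interval -0.14 to 1.42). Its values were 9.49, 9.16 and 9.11 in unmated and 9.84, 10.70 and 9.13 in mated rats, so mated replicate 3 lay among the unmated arrays and the groups overlapped. Its difference was 0.23 without mated replicate 2, below the 0.37 of Hist1h2bg and the 0.35 of Hist1h2bq, and 1.02 without mated replicate 3. H2bc1, which encodes the H2B of testis and lies next to H2ac1, had 7.23, 7.15 and 7.39 in unmated and 7.32, 7.57 and 7.22 in mated rats. Its difference of 0.11 was smaller than the SD of the mated arrays (0.18, n = 3). Without mated replicate 2 all 6 H2B genes still had a higher mated mean, and their median difference was 0.20 in place of 0.34.

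H2B genes are nearly identical in sequence, so a probe set can report several copies. A further 3 probe sets are annotated to several H2B symbols at a time, among them H2bc12, Hist1h2bd and Hist1h2bg, and were not used for any gene. The first had 11.01, 10.91 and 10.90 in unmated and 11.31, 11.68 and 11.17 in mated rats. All 3 shared sets had groups that did not overlap, with differences of 0.45, 0.40 and 0.46, and on all 3 mated replicate 2 was the highest array. They come from the same arrays and may carry signal from the same copies, so they are not separate evidence, and which copy was measured is uncertain for each H2B gene.

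**Figure D2:**
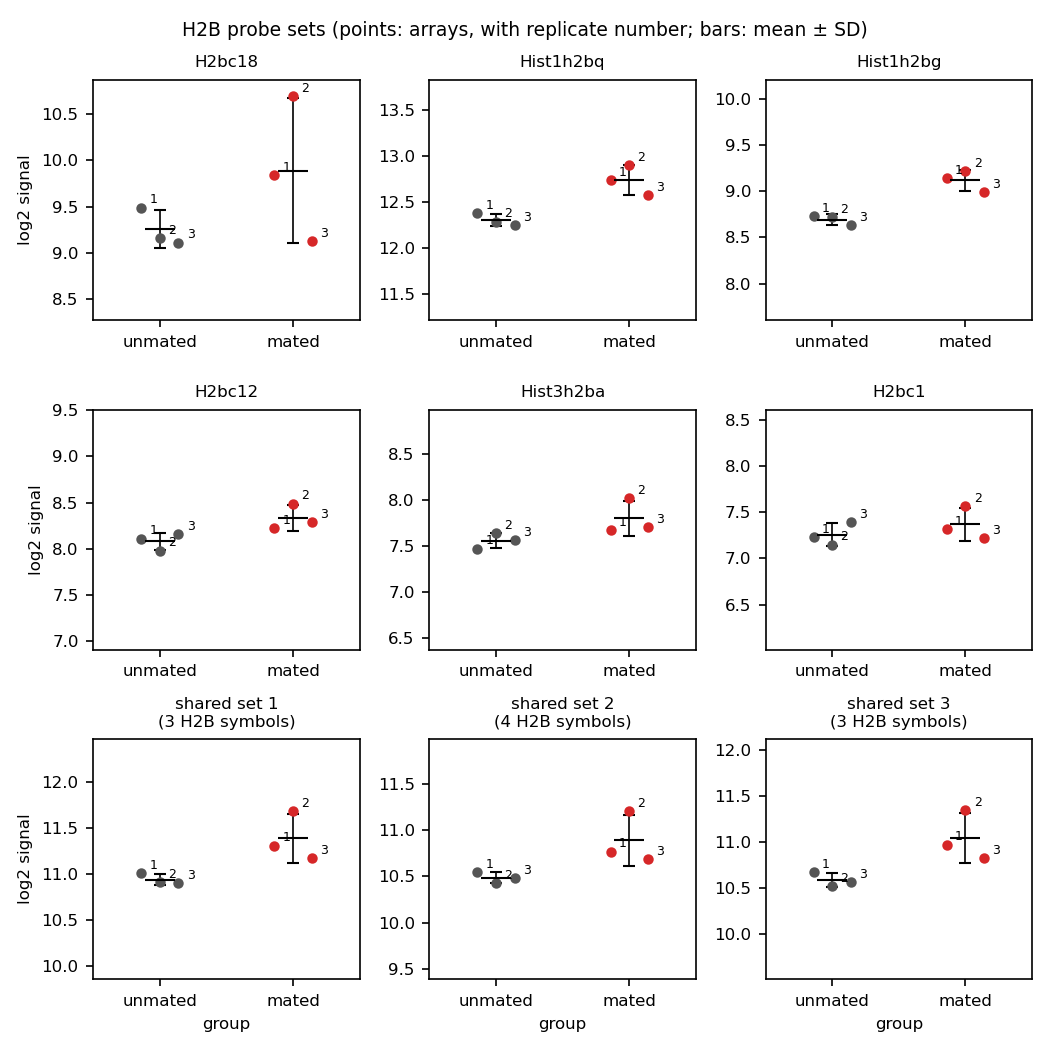
Log2 signal by group for the 6 H2B genes and the 3 probe sets shared between H2B symbols, with 1 point per array labelled by replicate number and bars for the mean ± SD (n = 3 per group); all panels span the same number of log2 units. The mated points of Hist1h2bq, Hist1h2bg, H2bc12, Hist3h2ba and the shared sets lie above all unmated points, by only 0.06 in H2bc12 and 0.03 in Hist3h2ba. The mated points of H2bc18 and H2bc1 overlap the unmated ones.

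The 6 replication-dependent H2A genes had a median difference of 0.20, with 5 higher and 1 lower in mated rats, and the replacement genes H2az1 and H2az2 both differed by -0.03. Without mated replicate 2 that median was 0.11, and H2az1 and H2az2 differed by 0.02 and 0.05. Hist1h2af had 8.16, 8.09 and 8.24 in unmated and 8.49, 8.58 and 8.26 in mated rats, a difference of 0.28 (95% confidence interval 0.06 to 0.50). Its groups were 0.02 apart, with mated replicate 3 the lowest mated value.

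H2ac25, the H2A gene of the Hist3 cluster, had 8.77, 8.71 and 8.65 in unmated and 9.15, 9.41 and 8.70 in mated rats. Its difference was 0.38 (95% confidence interval 0.01 to 0.75), and mated replicate 3 lay between the unmated values. Hist1h2an, a Hist1 H2A gene, had 10.87, 10.86 and 11.06 in unmated and 11.06, 11.43 and 11.07 in mated rats. Its difference was 0.26 (-0.01 to 0.52), and the lowest mated and highest unmated values were equal. A second probe set of Hist1h2an differed by 0.15 (-0.07 to 0.37), with groups that overlapped. In these H2A genes, as in H2B, mated replicate 2 was the highest of all arrays.

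H2ac21, an H2A gene of the Hist2 cluster, was the only histone gene with all mated values below all unmated ones. It had 6.57, 6.60 and 6.59 in unmated and 6.48, 6.03 and 6.54 in mated rats, a difference of -0.24 (95% confidence interval -0.54 to 0.06). Mated replicate 2, the highest array for most replication-dependent genes, was here the lowest. Its mean lay within the range of odorant and pheromone receptor genes, whose 95th percentile (a log2 signal of 7.12) served as a guide to background. H2ac4, a Hist1 H2A gene, also lay within that range, and H2ac1, the H2A of testis, lay above it, with differences of 0.14 (-0.10 to 0.38) and 0.10 (-0.12 to 0.31).

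H2az1 and H2az2 encode H2A.Z, which marks promoters and enhancers. H2az1 had 11.54, 11.56 and 11.56 in unmated and 11.63, 11.42 and 11.52 in mated rats, and H2az2 had 9.80, 9.94 and 10.00 in unmated and 10.04, 9.73 and 9.88 in mated rats. In both genes mated replicate 1 was the highest array and mated replicate 2 the lowest. The 95% confidence interval ran from -0.20 to 0.14 for H2az1 and from -0.26 to 0.20 for H2az2, and neither gene's groups were separated.

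The gene annotated as Hist1h2ail1 carries an H2A symbol, but RefSeq lists "H3 histone" among its synonyms. Its first 33 coding bases are shown with those of an H3 and an H2A gene, from the RefSeq table of GRCr8, and capitals mark the bases that differ from Hist1h2ail1.
Hist1h2ail1: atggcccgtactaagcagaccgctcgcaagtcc
Hist2h3c2: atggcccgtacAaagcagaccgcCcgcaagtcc
Hist1h2af: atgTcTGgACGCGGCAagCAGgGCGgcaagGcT
It differed at 2 of 33 bases from the H3 gene Hist2h3c2 and at 19 from the H2A gene Hist1h2af, and was counted as H3. With it counted as H2A, the median differences were 0.10 for H2A and 0.03 for H3.

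Apart from H3f4, the H3 genes differed by -0.003 to 0.04 on the probe sets used. The replacement genes H3f3a and H3f3b, which encode the H3.3 laid down outside S phase, differed by -0.003 (95% confidence interval -0.17 to 0.17) and 0.02 (-0.18 to 0.21). H3f3a had 12.75, 12.75 and 12.72 in unmated and 12.85, 12.66 and 12.70 in mated rats, and its 4 probe sets gave differences from -0.01 to -0.003. The direction for H3f3a turned when single arrays were left out. H3f4, the testis-type H3 of the Hist3 cluster, had 7.21, 7.18 and 7.22 in unmated and 7.32, 7.66 and 7.32 in mated rats. Its difference was 0.23 (-0.004 to 0.46), with groups 0.10 apart and mated replicate 2 above the other mated arrays.

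For Hist2h3c2, a replication-dependent H3 gene of the Hist2 cluster, the probe sets disagreed. The set of highest mean had 11.53, 11.45 and 11.63 in unmated and 11.60, 11.61 and 11.53 in mated rats, a difference of 0.04. The remaining 2 sets held identical values and count as 1 measurement, with 9.60, 9.56 and 9.67 in unmated and 9.79, 10.54 and 9.84 in mated rats. On them the groups did not overlap, and the difference was 0.45 (95% confidence interval 0.02 to 0.87), mostly from mated replicate 2. Hist1h2ail1 also had a second set, at a difference of 0.20 (0.03 to 0.38) with groups that did not overlap, against 0.01 (-0.24 to 0.26) on the set used. With all probe sets of a gene averaged, the median difference of the H3 genes was 0.11 in place of 0.02.

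**Figure D3:**
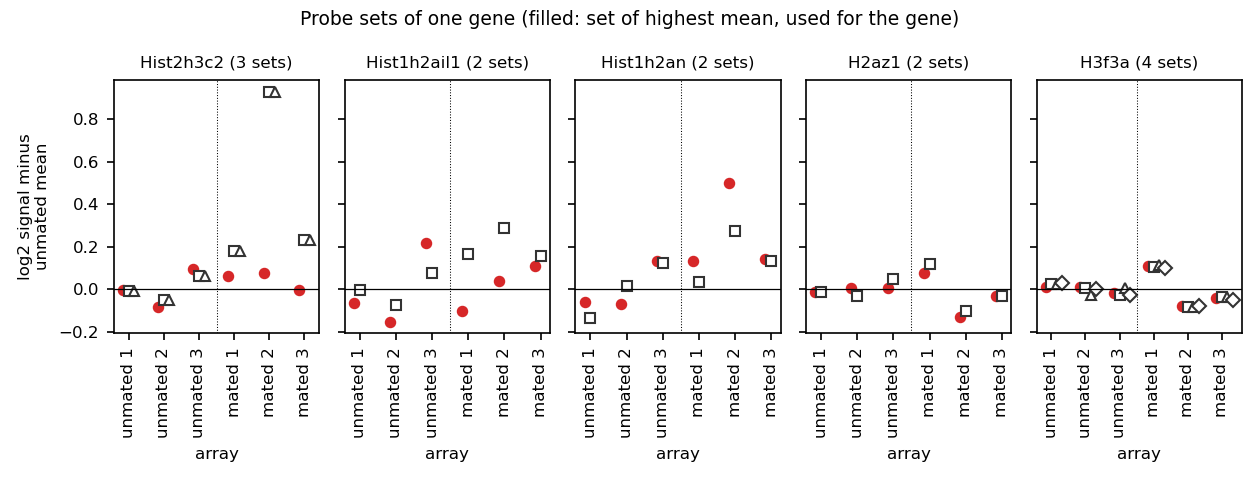
Log2 signal minus the unmated mean on each array, for the 5 histone genes with several probe sets; filled red points are the set of highest mean used for the gene and open points are its other sets. The sets of H3f3a and H2az1 follow each other closely, whereas the other 2 sets of Hist2h3c2, which coincide, stand 0.93 above their unmated mean in mated replicate 2, where the set used stands 0.07 above its own.

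The H4 genes showed no separation between groups. Hist1h4b had 10.79, 10.90 and 10.78 in unmated and 10.94, 10.68 and 10.84 in mated rats, a difference of -0.003 (95% confidence interval -0.20 to 0.19). H4c14, of the Hist2 cluster, had 9.10, 9.12 and 9.09 in unmated and 9.22, 9.15 and 9.08 in mated rats, a difference of 0.05 (-0.11 to 0.20). These intervals are for each gene alone, and the difference between H4 and H2B was not tested.

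Of the 6 H1 genes, 4 had a higher and 2 a lower mean in mated rats. H1f6, the H1 of testis, had 8.08, 8.05 and 8.14 in unmated and 8.26, 8.64 and 8.38 in mated rats, a difference of 0.34 (95% confidence interval 0.10 to 0.57) with groups that did not overlap. Among the histone genes matched in the promoter table of GRCr8, Hist1h2bq has the gene start nearest to that of H1f6. H1f8, the H1 of oocytes, had 6.10, 6.11 and 6.16 in unmated and 6.29, 6.28 and 6.40 in mated rats, a difference of 0.20 (0.04 to 0.36), at a mean within the receptor range. The somatic genes H1f4, H1f1 and H1f5 differed by 0.09 (-0.14 to 0.32), -0.06 (-0.46 to 0.33) and -0.07 (-0.24 to 0.10), and H1f7, another testis form within the receptor range, by 0.05 (-0.21 to 0.31). H1f4 had 10.23, 10.01 and 10.34 in unmated and 10.38, 10.20 and 10.27 in mated rats, so the groups overlapped.

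**Figure D4:**
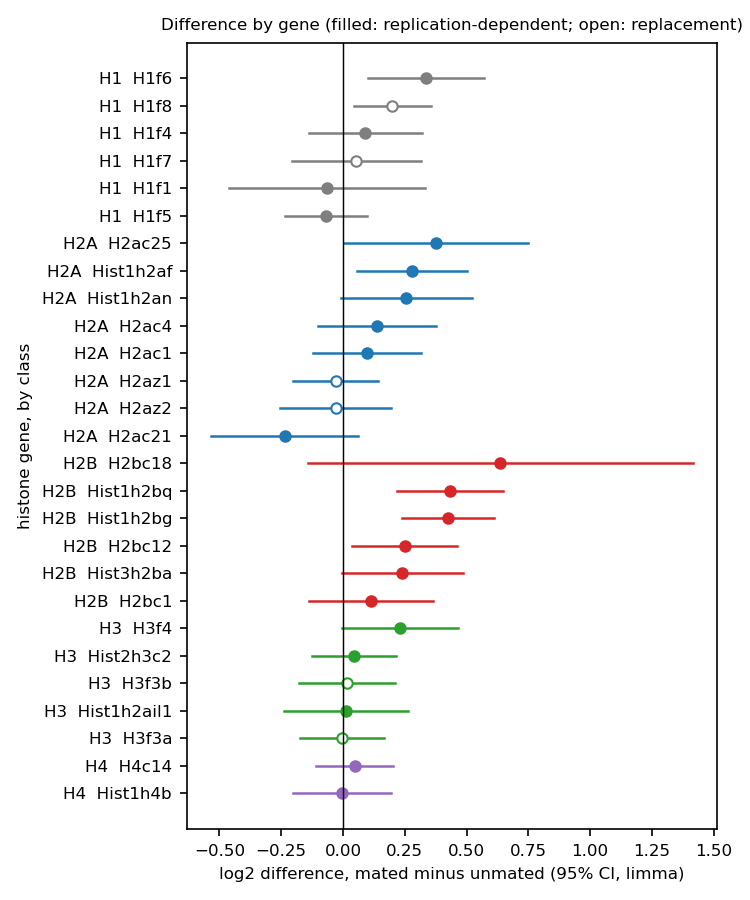
Difference in log2 signal, mated minus unmated, for the 27 histone genes with the 95% confidence interval of the limma fit, coloured by class; filled points are replication-dependent and open points replacement genes. H2B genes lie to the right, from 0.11 to 0.64, and H4 genes lie near 0, while H1, H2A and H3 hold genes near 0 beside genes up to 0.34, 0.38 and 0.23.

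Grouped by kind, the 21 replication-dependent genes had a median difference of 0.14, with 17 higher and 4 lower in mated rats, and the 6 replacement genes one of 0.01, with 3 higher and 3 lower. The replacement genes were H2az1, H2az2, H3f3a, H3f3b and the testis and oocyte genes H1f7 and H1f8. H1f7 and H1f8, both within the receptor range, were among the 3 higher, at 0.05 and 0.20. The direction of the replacement median turned under both other scalings, at -0.01 each. Mated replicate 2 was the highest array for 14 of the 21 replication-dependent genes (66.7%) and for 0 of the 6 replacement genes, against 17.4% of all genes. On that array the replication-dependent genes lay at a median of 0.31 above their unmated means and the replacement genes at -0.06. The corresponding medians of the replication-dependent genes were 0.12 on mated replicate 1 and 0.06 on mated replicate 3, close to the 0.05 of unmated replicate 3. Without mated replicate 2, 19 of the 21 replication-dependent genes and all 6 replacement genes had a higher mated mean, at medians of 0.12 and 0.04.

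**Figure D5:**
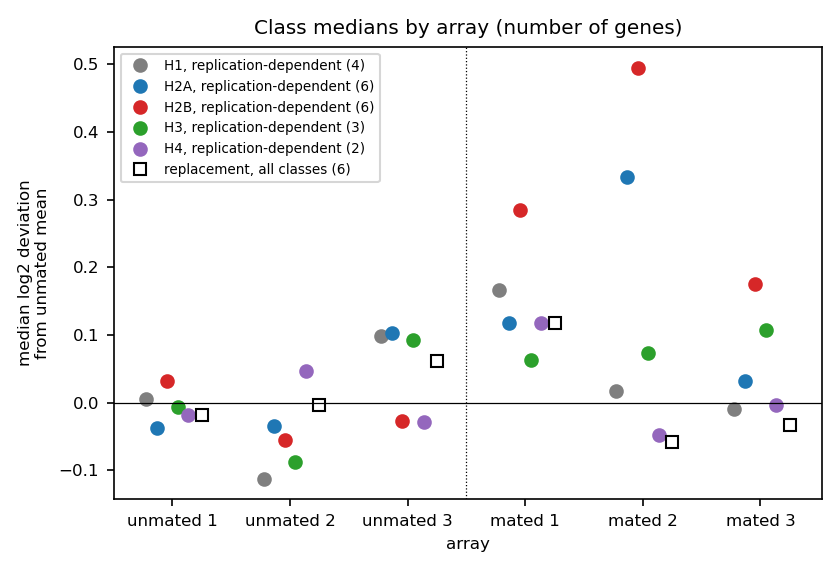
Median log2 deviation from the unmated mean on each of the 6 arrays, for the replication-dependent genes of each class (circles) and the replacement genes (open squares), with the number of genes in the key. H2B stands at 0.285, 0.495 and 0.175 on the 3 mated arrays, and H4 and replacement genes lie below 0 on mated replicate 2.

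By cluster, the 3 genes of Hist3, which lie close together in GRCr8, all had higher means in mated rats, with Hist3h2ba at 0.24, H2ac25 at 0.38 and H3f4 at 0.23. Each of them was highest on mated replicate 2. The 4 Hist2 genes ranged from -0.24 for H2ac21 to 0.64 for H2bc18. The 14 Hist1 genes had a median of 0.125, with 11 higher and 3 lower.

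Genes that process and deliver histones were taken from lists of well-known members. Of 11 measured genes of histone message processing, 6 were higher and 5 lower, at a median of 0.02, and 1 was higher at an unadjusted p under 0.05, beside the 3.02% of all genes. That gene was Slbp, which encodes the stem-loop binding protein of replication-dependent histone messages. Its values were 6.47, 6.61 and 6.69 in unmated and 6.72, 6.85 and 6.82 in mated rats, a difference of 0.21 (95% confidence interval 0.02 to 0.39) with groups 0.03 apart, at a mean within the receptor range. Cpsf3, the nuclease that cuts these messages, lay lower on every mated array, at 9.41, 9.55 and 9.43 in unmated and 9.38, 9.34 and 9.32 in mated rats. Npat, the coactivator of histone gene clusters, differed by -0.01 (-0.22 to 0.20).

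Of 18 measured histone chaperones and remodelling factors, 6 were higher and 12 lower, at a median of -0.01, with 0 past an unadjusted p of 0.05 in either direction in the limma fit, where 3.02% of all genes were higher and 1.55% lower. Ssrp1, a subunit of the FACT complex, had the smallest p of the list, at a difference of -0.14 (95% confidence interval -0.31 to 0.02). Among 24 measured genes of DNA replication and proliferation, 12 were higher and 12 lower, at a median of 0.00. At an unadjusted p under 0.05, 0 were higher and 2 lower, Prim1 and Tyms, beside the same shares of all genes. Prim1, a DNA primase subunit, had 9.34, 8.80 and 9.38 in unmated and 8.48, 8.59 and 7.74 in mated rats, a difference of -0.90 (-1.45 to -0.35). Pcna, the sliding clamp of replication, had 9.71, 9.83 and 9.83 in unmated and 9.95, 9.57 and 9.93 in mated rats. Its lowest value of all arrays was on mated replicate 2. That array was the highest for 3 of the 24 genes, Ccne1, Gins2 and Cdk2. The median of this list on mated replicate 2 was -0.06 relative to the unmated means, while the replication-dependent histone genes were at 0.31 above them on that array. The part of dividing cells in the histone values was not tested.

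Of the histones whose symbols lie outside the name pattern, 7 were measured, with 4 higher and 3 lower at a median of 0.05 and no separation between groups. H2ax, the histone phosphorylated at DNA breaks, differed by 0.05 (95% confidence interval -0.24 to 0.33), Cenpa, the H3 of centromeres, by 0.10 (-0.14 to 0.33), and H2bu1, an H2B gene, by 0.19 (-0.05 to 0.43) within the receptor range.

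The tissue label was checked on 7 measured epithelial markers, all above the receptor range, with means from 10.69 to 12.97. Their median difference was -0.01. Krt8, a keratin of simple epithelia, had the smallest p of these markers, with means of 12.92 (SD 0.085, n = 3) in unmated and 13.02 (SD 0.095, n = 3) in mated rats and a difference of 0.10 (95% confidence interval -0.09 to 0.28). Of 10 leukocyte markers 4 lay above the receptor range, with 5 higher and 5 lower and mean list levels from 7.54 to 7.66 in unmated and from 7.54 to 7.63 in mated rats. At an unadjusted p under 0.05 in the limma fit, 1 was higher and 0 lower, beside 3.02% and 1.55% of all genes. That marker was S100a8, a calcium-binding protein of neutrophils, with 4.72, 4.58 and 4.96 in unmated and 5.14, 4.99 and 4.92 in mated rats, a difference of 0.26 (95% confidence interval 0.01 to 0.52) at a mean within the receptor range. Mated replicate 3 lay below the highest unmated value. S100a9 differed by -0.02 (-0.26 to 0.22). Csf1r was lower on every mated array, at -0.13 (-0.29 to 0.03). Of 10 sperm and testis markers 5 lay above that range, with 4 higher and 6 lower in mated rats. Mean list levels ran from 7.70 to 7.71 in unmated and from 7.64 to 7.73 in mated rats. Spata18 and Ldhc had means of 12.93 and 10.78 in the unmated rats, so the list level is no measure of sperm. At an unadjusted p under 0.05 in the limma fit, 0 were higher and 1 lower, beside the same shares of all genes. Prm1, a protamine of sperm, was higher on every mated array, at a difference of 0.17 (95% confidence interval -0.0001 to 0.34). Tnp1, a transition protein of spermatids, was lower on every mated array, at -0.18 (-0.34 to -0.02) and a mean within the receptor range. Ldhc was also lower on every mated array, at -0.22 (-0.46 to 0.02). The part of any of these cells in the histone values was not tested, and in whole tissue a change in cell number and a change per cell cannot be told apart.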

How the data were processed

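RNA from 6 endosalpinx samples, 3 unmated and 3 mated, was measured on 1 array each. The log2 signals per probe set were deposited by the authors and used as they stand; RMA and Affymetrix Expression Console are named in the submitters' processing notes, versions and genome build are not given in the sources used here, and the log2 scale was taken from the values. Because RMA equalises the distributions of the arrays, a change shared by most genes cannot be seen. Median log2 signals per array ran from 7.89 to 7.94. Depth does not apply to arrays, and their number limits precision.

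Of 29214 probe sets, 15310 had 1 gene symbol, 323 several and 13581 none. The set of highest mean per gene left 14506 genes. Groups, taken from sample titles, were compared over all genes with limma 3.58.1 in R 4.3.3 (lmFit, eBayes, two-sided, Benjamini-Hochberg), tested on simulated data. Histone members, gene lists and the naming rule were chosen with earlier results of these data known. The rule named every histone gene without overlap between groups, the probe set of highest mean in each class, the 2 H2B genes noted beforehand and the member of smallest p in each list; other genes were named after their values were seen. H3f4 was counted as replication-dependent on its RefSeq synonym Hist3h3, and all H1 genes of the Hist1 cluster likewise. Of 35 histone probe sets with 1 symbol, 27 were used. All 27 genes matched the RefSeq gene table of GRCr8 and 26 its promoter table. Levels of different probe sets were set only against the receptor range, as a rough guide to background. Nothing but the titles marks the samples as separate animals.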

Additional observations from a re-analysis of the deposited data

Results flagged for a closer look

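The 3 probe sets annotated to several H2B symbols, which no gene-level comparison used, had signals on all mated arrays above those on all unmated arrays. Of all genes, 5.24% did so. All 3 sets carry the symbol Hist1h2bg, on which the family was picked, so nothing is read from their separation. Their log2 differences, mated minus unmated, were 0.45, 0.40 and 0.46, with 95% confidence intervals of 0.16 to 0.74, 0.10 to 0.71 and 0.16 to 0.76. On mated replicate 2 alone they lay 0.74, 0.72 and 0.76 above the unmated mean, and on mated replicate 3 they lay 0.23, 0.20 and 0.24 above it. They share their arrays, and possibly their transcripts, with the H2B genes of the report.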

How the results depend on the processing

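No histone gene and no other gene passed an adjusted p of 0.05 by limma under any of 16 alternatives; 663 genes had an unadjusted p under 0.05 as deposited. The fit with the replicate number as a block left the histone counts at 7 higher and 0 lower and the H2B median at 0.34, and equal numbers did not pair the samples (correlations of deviations 0.004, -0.083 and 0.074). Leaving out the dimmest 25% or 50% of genes kept 24 and 14 histone genes. The count without overlap and lower was then 0 and 0 (3.52% and 3.94% of all genes kept). At 50% the count without overlap and higher was 2 (3.2%) and that higher at an unadjusted p under 0.05 was 3 (1.85%). H1f6, H1f8, Hist1h2af, H2bc12, Hist3h2ba and H3f4, whose groups did not overlap, were among the dimmer genes left out at 50%. Averaging all probe sets moved the H3 median to 0.108. With the testis and oocyte genes left out, an alternative added after seeing the data, as was the class of Hist1h2ail1, the H2B median was 0.42. With each array left out in turn, the median ran from -0.021 to 0.147 for H1, from 0.055 to 0.192 for H2A, from 0.202 to 0.388 for H2B, from -0.000 to 0.090 for H3, from -0.026 to 0.057 for H4 and from 0.060 to 0.163 for all histone genes. The count higher at an unadjusted p under 0.05 ran from 3 without unmated replicate 2 (1.81% of all genes) to 10 without mated replicate 3 (2.27%). The count lower was 1 without mated replicate 3 (1.39%) and otherwise 0 (1.17% to 4.01%). The count without overlap and higher ran from 8, as without unmated replicate 2 (8.58%), to 11 without unmated replicate 3 (11.5%) or mated replicate 3 (9.07%). That without overlap and lower ran from 1, as without unmated replicate 2 (6.01%), to 3 without mated replicate 1 (12.4%). Of 27 histone genes, 17 kept their direction under every alternative run, and Hist2h3c2 differed by 0.000 without unmated replicate 2. The 9 others ran from -0.192 to 0.123 (H1f1), -0.002 to 0.163 (H1f4), -0.040 to 0.143 (H1f7), -0.083 to 0.022 (H2az1), -0.108 to 0.047 (H2az2), -0.060 to 0.035 (H3f3a), -0.037 to 0.078 (H3f3b), -0.063 to 0.122 (Hist1h2ail1, also -0.003 after centring arrays on their medians) and -0.063 to 0.067 (Hist1h4b) with single arrays left out; each of these spans lies on both sides of 0, and the cause was not tested.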
